A study of Mus musculus with 4 samples.

Results

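Arterial endothelial cells line the arteries and arterioles that feed the brain. The arterial cells described here were 432 of the 55902 cells that passed the cell filters in 4 single-cell RNA libraries, and 432 of 4450 endothelial cells. A cell was an endothelial cell if it held at least 5 unique molecular identifiers (UMIs, each a captured mRNA molecule) over Cldn5, Pecam1, Cdh5, Flt1 and Ly6c1, at most 2 over P2ry12, Tmem119, P2ry13, Gpr34, Olfml3 and Fcrls, and none of Ptprc. It was an arterial cell if it also held at least 2 UMIs over Gkn3, Bmx, Sema3g, Efnb2 and Hey1. The same 2 UMI threshold left 4018 other endothelial cells with fewer, which served as the comparison group. The members were thus chosen by the measured levels of these genes, which are given as a description with no test.

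All 4 libraries came from the stroke-side hemisphere of wild-type mice with an ischemic stroke, taken at day 14. On day 5 every animal had received hydrogel microspheres (MAPS) in the cavity of the infarct, alone or with extracellular vesicles (EVs). The library labelled MAPS had no vesicles. The library labelled UT EV+MAPS is called the UT EV library here, and the labels do not spell out UT. The library labelled IL-1a TNFa C1q EV+MAPS is called the IL-1a EV library. The library labelled IL-4 C1q EV+MAPS is called the IL-4 EV library. The labels describe the vesicles as coming from reactive astrocytes, and this is not taken here to hold for the UT EV library. Values for all 4 libraries are given in the order of these sentences. There was 1 library per group and the number of animals in it was not given, so a treatment and a library cannot be told apart. Unoperated controls were not analysed here, and red cells and dead cells had been removed before loading.

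Brain endothelium changes along the vascular tree, and arterial cells are known for Notch signalling, SoxF transcription factors and genes of elastic matrix. Capillary and venous cells carry more of the transporters that move amino acids, lactate and iron across the blood-brain barrier, and venous cells are the usual site of leukocyte adhesion. Arterial endothelium rests on smooth muscle, so RNA of that neighbour is measured beside the results.

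The rule found 25, 154, 113 and 140 arterial cells with 152596, 578999, 468582 and 522356 UMIs. Gkn3, a gastrokine gene known as a marker of mouse brain arteries, had a level of 308, 1693, 1688 and 1047 counts per 1000000 UMIs (CPM) in arterial cells. In the other endothelial cells it stood at 3.96, 13.7, 13.6 and 9.63 CPM. The MAPS library was thus low for the leading marker, with a Gkn3 UMI in 8 of 25 cells against 130 of 154, 98 of 113 and 109 of 140. Microglia, which should lack the gene, held a Gkn3 UMI in 0.0535%, 0.525%, 0.334% and 0.28% of cells at median depths of 4753, 2979.5, 2667 and 2727 UMIs. Since Gkn3 helped to choose the arterial cells, nothing is read from that gap.

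Bmx, a kinase of the Tec family found in arterial endothelium, had a level of 32.8, 149, 107 and 124 CPM. Sema3g, a secreted semaphorin, had 347, 136, 100.3 and 130.2 CPM. Efnb2, the ephrin ligand that marks arteries, had 124.5, 34.5, 29.9 and 53.6 CPM. The MAPS library was the lowest of the 4 for Gkn3 and Bmx and the highest for Sema3g and Efnb2. Hey1, a Notch target, had 209.7, 109, 72.6 and 124 CPM and was likewise highest there.

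**Figure D1:**
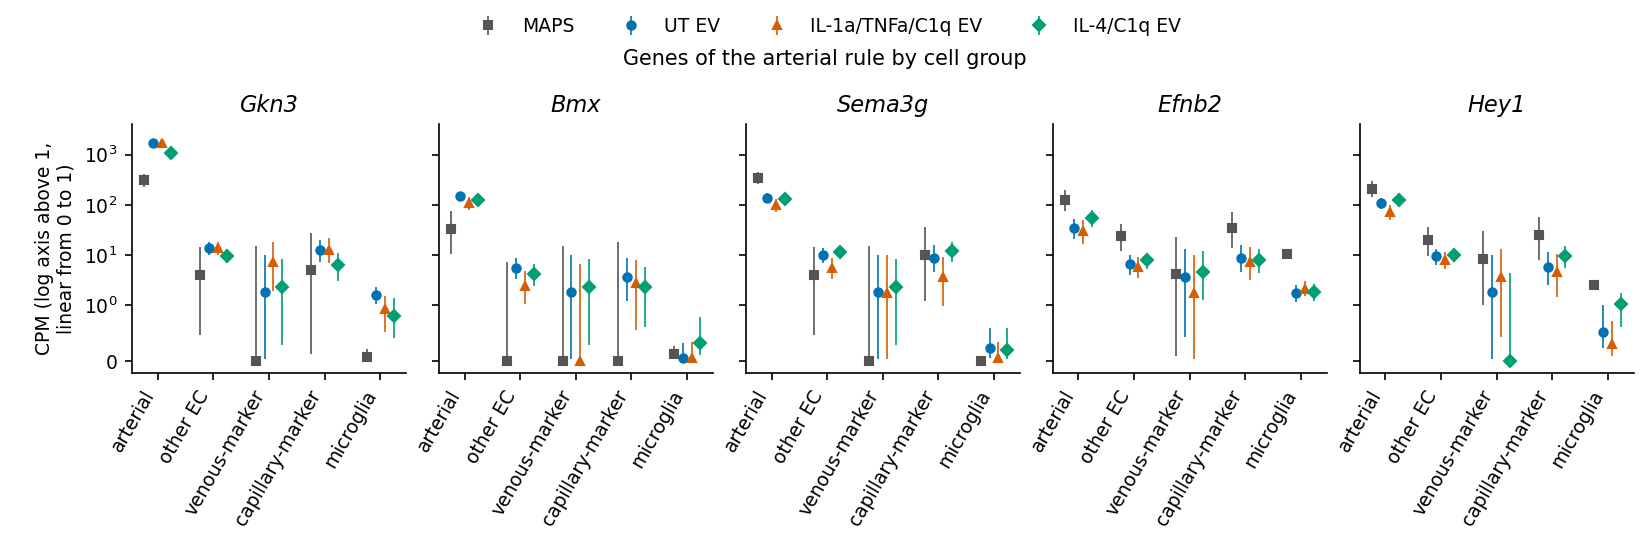
Level of the 5 arterial rule genes (CPM, log axis above 1) in arterial, other endothelial (EC), venous-marker, capillary-marker and microglial cells, 1 point per library with an exact 95% interval for counting error. These genes chose the arterial cells, and Gkn3 in them is lowest in the MAPS library (308 CPM) and highest in the UT EV library (1693 CPM).

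Among the 432 cells, 118 showed UMIs of 1 of the 5 arterial genes, 217 of 2, 73 of 3, 22 of 4 and 2 of all 5. Gkn3 was the sole gene in 87 of the 118. The median arterial cell held 4 such UMIs and the highest 93. Of all endothelial cells, 3549 held no arterial UMI, 469 held 1, 149 held exactly 2, 109 held 3 to 4, 93 held 5 to 9 and 81 held 10 or more. The threshold thus passes through a continuous range. Tm4sf1, a tetraspanin-like surface protein outside the rule, had 514, 1986, 2557 and 2384 CPM in cells just inside, with exactly 2 UMIs. Just outside, in cells with 1 UMI, it had 727, 1342, 1365 and 1677 CPM. Egfl8, also outside the rule, was higher just inside in each library. Mgp was too except in the MAPS library (356 inside against 1380 CPM outside), and Stmn2 except in the IL-1a EV library (44.5 against 83.9 CPM).

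Depth and other cells' RNA differed between the groups. Arterial cells had a median of 4666, 3182.5, 3120 and 3360 UMIs against 3312, 1941, 2134 and 1916 in the other endothelial cells, a gap that the minimum of 2 arterial UMIs itself favours. The 4 libraries held 13076 to 15138 barcodes, and the barcode with the fewest UMIs held 1233 in the IL-1a EV library against 500 in each of the others. A doublet caller marked 2683 cells, 16 of them arterial. Pairs of libraries shared 333 barcodes in all, none of them between arterial cells. Over 13 markers of mural cells (smooth muscle and pericytes) the summed level was 6226, 2734, 3434 and 1957 CPM in arterial cells against 1274, 616, 744 and 513 CPM in other endothelial cells. Over 4 choroid plexus markers it was 282, 468, 160.1 and 629.8 CPM against 16078, 6119, 7700 and 4792 CPM. Over 4 erythroid markers it was 813, 40508, 53796 and 14651 CPM against 4654, 51772, 38682 and 30724 CPM.

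Arterial cells made up 18.4% of the endothelial cells in the MAPS library (exact 95% binomial interval 12.3 to 25.9, 25 of 136). They were 10.9% in the UT EV library (9.35 to 12.7, 154 of 1409), 9.30% in the IL-1a EV library (7.73 to 11.1, 113 of 1215) and 8.28% in the IL-4 EV library (7.01 to 9.70, 140 of 1690). The MAPS share was the highest. Its interval overlapped that of the UT EV library and lay above those of the IL-1a EV and IL-4 EV libraries. With at least 3 arterial UMIs it was 12.5% (7.45 to 19.3), again above those 2, which reached up to 7.40% and 6.76%. With a floor of 1233 UMIs in each library it was 20.0% (13.1 to 28.5), with upper limits of 11.1% and 11.9% in those 2. Cells were then thinned to 1500 UMIs, which left out 23, 445, 217 and 550 shallower endothelial cells, and both thresholds were applied to the thinned counts. This took in cells that had passed the microglial or Ptprc limit only after thinning, for 125, 1023, 1047 and 1212 endothelial cells, and the shares were 7.20% (3.35 to 13.2), 7.14% (5.63 to 8.89), 6.02% (4.65 to 7.63) and 6.11% (4.82 to 7.60). Over the 113, 964, 998 and 1140 thinned cells that were endothelial at full depth, a choice made after seeing the data, the shares were 7.08%, 7.26%, 6.31% and 5.96%. In the thinned cells the 4 intervals overlapped, and no difference in share was detectable at this depth. Of all cells that passed the filters, arterial cells were 0.181%, 1.21%, 0.754% and 0.977%. These intervals cover counting error only.

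**Figure D2:**
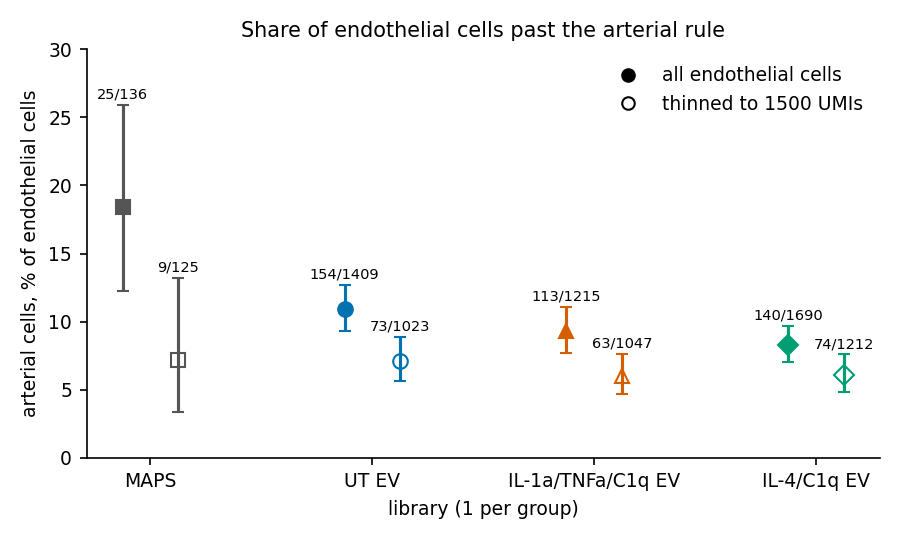
Arterial cells as a percentage of endothelial cells in each library, with exact 95% binomial intervals, for all cells and after thinning each cell to 1500 UMIs. The unthinned share runs from 18.4% (MAPS) to 8.28% (IL-4 EV) and the thinned share from 7.20% to 6.02%.

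Against the other endothelial cells of the same libraries, arterial cells were higher for Egfl8, Vegfc and Stmn2. They were also higher for 17 of 19 tested genes of an arterial programme, and lower for 11 of 19 barrier and capillary genes. Both lists were drawn up with earlier results of these data known, so their counts are a description, and the programme itself holds Vegfc and Stmn2. Each gene's UMIs were summed per library and cell group, and edgeR's quasi-likelihood test with Benjamini-Hochberg adjustment compared the groups with library as a block, so the 4 libraries were the replicates. Of 5922 genes tested, 379 (6.4%) rose and 321 (5.42%) fell at an adjusted p under 0.05. Of these 700 genes, 626 had the same sign in each library and 206 were at least 1 apart on the log2 scale. Without the MAPS library 503 rose and 430 fell, and without the UT EV library 244 and 184.

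Egfl8, a secreted protein with EGF-like domains, had 164, 283, 190 and 220 CPM in arterial cells and 9.89, 18.1, 14.8 and 11.1 CPM in the others. The 2 sets did not overlap, and the log2 difference was 3.95 ± 0.15 (SE from edgeR's test statistic, n = 4 libraries, edgeR adjusted p = 6.88e-18). Vegfc, a growth factor of the VEGF family best known for lymphatic growth, had 144, 50.1, 59.8 and 63.2 CPM against 17.8, 2.97, 4.63 and 3.21 CPM. It was highest in the MAPS library in both cell groups, and rose by 3.78 ± 0.26 on the log2 scale (edgeR adjusted p = 1.13e-11). Stmn2, a stathmin best known from neurons, had 177, 390, 282 and 167 CPM against 21.8, 43.7, 41.6 and 28.9 CPM. It rose by 2.82 ± 0.13 (edgeR adjusted p = 6.05e-16), while 5 neuron markers summed to 39.3, 34.5, 38.4 and 38.3 CPM in arterial cells and 59.3, 29.1, 23.8 and 22.7 CPM in the others.

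Other genes with a large rise were Fbln2 (log2 difference 3.06), a fibulin of elastic fibres, and Eln (3.08), elastin itself. Gja4, the connexin 37 gene of arterial gap junctions, had 111, 67.4, 40.5 and 65.1 CPM against 27.7, 8.03, 11.7 and 7.16 CPM (log2 difference 2.56 ± 0.25, edgeR adjusted p = 7.60e-09). Tmem100 (2.90), a membrane protein tied to BMP signalling in arteries, and Serpini1 (2.67), a protease inhibitor, also rose. Another group is known from contractile cells, with Mylk (3.14), the myosin light chain kinase, Tpm2 (3.44), a tropomyosin, and Mustn1 (3.6), a small nuclear protein of muscle. Map3k7cl (3.79), Rasl11a (2.87) and Slc38a11 (2.86) completed the 14 largest. Tpm2 had an adjusted p of 0.0207 and was no longer called by edgeR without the MAPS or the IL-4 EV library. Serpini1 was too low to be tested without the UT EV library.

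**Figure D3:**
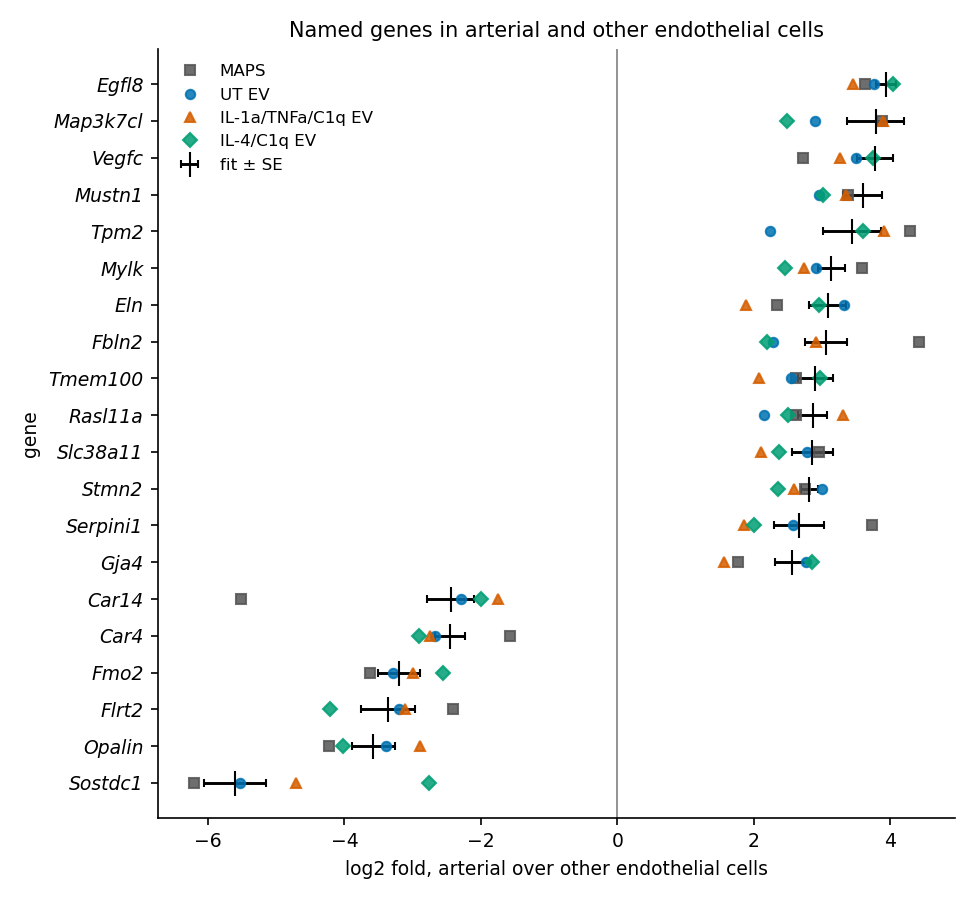
Log2 ratio of arterial to other endothelial cells for the genes with the largest rise and fall by edgeR. Coloured points are the 4 libraries (log2 CPM with a prior count of 2), black marks the fitted difference with its SE, and the vertical line is 0. The 14 raised genes lie right of 0 and the 6 genes with the largest fall left of 0 in all 4 libraries.

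Mural RNA moved with these genes. Of the arterial cells 27.5% held at least 2 mural UMIs, against 8.34% of the shallower other endothelial cells, and 6 of the 9 mural markers tested rose. Acta2, smooth muscle actin, had 1173, 316, 625 and 262 CPM in arterial cells against 0, 26.5, 8.63 and 5.92 CPM. Myh11, smooth muscle myosin, had 524, 53.5, 89.6 and 57.4 CPM against 1.98, 8.92, 2.47 and 2.71 CPM, and did not pass (edgeR adjusted p = 0.0598). Both markers were far higher in arterial cells of every library, most of all in the MAPS library. In the 313 arterial cells with at most 1 mural UMI (18, 113, 71 and 111), 198 genes rose and 170 fell by the same edgeR test. There, 4 of the 14 named genes had enough counts to be tested, Egfl8, Vegfc, Stmn2 and Eln, and all 4 rose. Egfl8 stood at 208 against 13.2 CPM over the 4 libraries and Vegfc at 63.4 against 3.90 CPM. Fbln2, Gja4, Tmem100, Serpini1 and Mylk were not tested there, and by level each stood at least 2-fold above the others in each library, on few UMIs. Serpini1 had 2, 2, 2 and 4 UMIs in the arterial cells, with 0 in the other cells of the MAPS library, and Gja4 had 2 UMIs in the IL-1a EV library. In those cells Map3k7cl and Slc38a11 had no UMI, and Mustn1 had 3, Tpm2 5 and Rasl11a 7 UMIs, with levels 1.41, 1.45 and 1.53 times those of the other endothelial cells with at most 1 mural UMI.

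**Figure D4:**
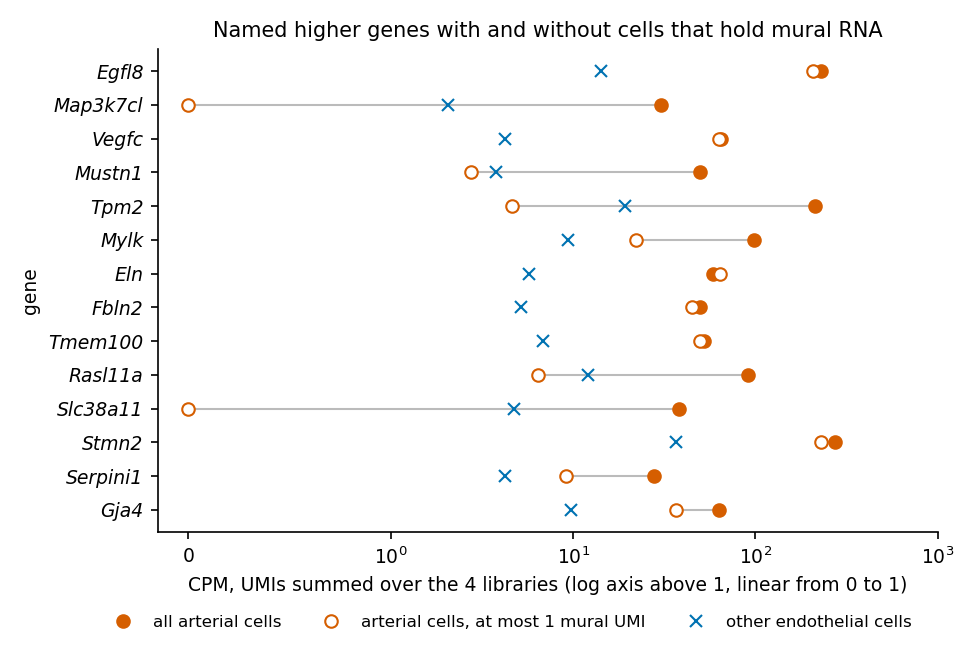
Level of the 14 most raised genes over the 4 libraries (CPM, log axis above 1) in all arterial cells (filled circles), in arterial cells with at most 1 mural UMI (open circles) and in all other endothelial cells (crosses). Egfl8 is at 228 CPM in all arterial cells and 208 CPM in the mural-poor ones, Mylk, Serpini1 and Gja4 are lower there but above the crosses, and Mustn1, Tpm2, Rasl11a, Map3k7cl and Slc38a11 lie below the crosses. The crosses include cells with mural RNA. Against mural-poor other endothelial cells, Mustn1, Tpm2 and Rasl11a were 1.41, 1.45 and 1.53 times as high, on few UMIs.

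Over the list of 22 genes of the arterial programme, 17 of the 19 tested rose and none fell, with a median log2 difference of 1.51 against -0.01 over all genes tested. The list was drawn up with earlier results of these data known. Mgp, the matrix Gla protein that blocks calcification, had 872, 1444, 1586 and 1151 CPM against 457, 62.2, 134 and 86.4 CPM. Its log2 difference of 3.31 ± 0.74 did not pass the edgeR test (adjusted p = 0.112), and the other endothelial cells of the MAPS library stood apart with the highest of their 4 values. Clu was the other member that did not pass. Fbln5, Cytl1 and Gja5 were too low to be tested. Fbln5, a fibulin, stood at 28.4 CPM in arterial cells over the 4 libraries and 0.627 CPM in the others, Cytl1 at 12.8 and 0.0896 CPM and Gja5, connexin 40, had 10 UMIs in arterial cells and 0 in the others, where a count of 0 allows up to 3. Tm4sf1 rose by 1.83 ± 0.11, from 542, 832, 894 and 898 CPM to 1343, 3425, 3622 and 3482 CPM.

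Of 14 Notch pathway genes 9 were tested, and 6 rose and none fell, with a median log2 difference of 0.63. Of all tested genes 6.4% rose and 5.42% fell. Among the ligands Jag1 rose by 1.31 ± 0.32, Jag2 by 0.80 ± 0.12 and Dll4 by 0.63 ± 0.19. Jag1 had 164, 27.6, 8.54 and 24.9 CPM in arterial cells against 21.8, 14.6, 4.32 and 14.8 CPM, so its difference was widest in the MAPS library. The receptors Notch4 and Notch1 rose by 0.80 ± 0.22 and 0.51 ± 0.12. Nrarp, a target that feeds back on the pathway, rose by 1.22 ± 0.21, from 35.6, 20.5, 20.0 and 21.2 CPM to 138, 51.8, 44.8 and 38.3 CPM. In mural-poor cells Nrarp stood at 24.8 against 17.9 CPM over the 4 libraries, 1.38 times, against 2.50 times in all cells. Hes1, another target, had 190, 176, 145 and 136 CPM against 231, 138, 94.1 and 138 CPM and did not pass (edgeR adjusted p = 0.451).

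Among 12 genes of shear stress and the SoxF factors, 4 rose and 1 fell, where 6.4% of all tested genes rose and 5.42% fell. The SoxF factors Sox17 and Sox18, which drive arterial identity, rose by 0.62 ± 0.10 and 0.63 ± 0.09. Sox7, the remaining SoxF factor, had 52.4, 25.9, 10.7 and 28.7 CPM against 109, 31.5, 22.2 and 36.8 CPM and did not pass (edgeR adjusted p = 0.0751). Sox17 and Sox7 thus lay on opposite sides of 0. Klf4, a factor induced by flow, rose by 0.52 ± 0.08. Nostrin, which moves the nitric oxide synthase away from the membrane, fell by 0.67 on the log2 scale. Nos3, that synthase, had 183, 104, 105 and 111 CPM against 265, 105, 105 and 122 CPM and was not called.

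Matrix and growth factor genes rose in part, where 6.4% of all tested genes rose and 5.42% fell. Of 16 matrix genes tested 5 rose and 1 fell, among them Bgn (1.15), a proteoglycan, and Ltbp4 (0.69), which binds latent TGF-beta. Of 13 TGF-beta and BMP genes 5 rose and 1 fell. Smad6, an inhibitor of BMP signalling, rose by 1.63 ± 0.23, from 23.7, 10.7, 11.1 and 16.5 CPM to 72.1, 39.7, 27.7 and 55.5 CPM. The ligand Tgfb2 rose by 1.25 ± 0.12, from 168, 91.3, 62.3 and 63.7 CPM to 341, 180, 175 and 193 CPM. The receptor Tgfbr2 rose by 0.48, while Tgfbr1 fell by 0.73.

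The remaining lists were mixed, and their counts stand beside 6.4% of all tested genes that rose and 5.42% that fell. Of 10 guidance genes 1 rose, the netrin receptor Unc5b (1.30), and the neuropilins Nrp1 and Nrp2 fell by 0.58 and 1.38. Of 10 angiogenesis genes 3 rose, Vegfc, Mcam (1.31) and Ackr3 (0.78), and 2 fell, among them Adm, adrenomedullin, by 1.28. In mural-poor cells Mcam was 1.74 times and Ackr3 1.16 times the level of the others, against 2.82 and 1.82 times in all cells. Of 8 vascular tone genes 2 rose, Gja4 and Edn1 (0.99), the vasoconstrictor endothelin, and 2 fell, Adm and the receptor partner Ramp2 (by 0.46). Of 19 interferon genes 3 rose, Irf7 (0.56), Ifitm3 (0.40) and Isg15 (0.24). Of 10 MHC class I genes 2 rose. Of 14 immediate early genes, which can respond to tissue dissociation, 6 rose and 2 fell. The 2 cell cycle genes tested, Pcna and Tyms, had log2 differences of -0.11 and -0.10 (edgeR adjusted p = 0.826 and 0.915).

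Barrier and transport genes were lower, where 5.42% of all tested genes fell and 6.4% rose. Of the 19 genes of the blood-brain barrier and capillary list 11 fell and none rose, with a median log2 difference of -0.42. Car4, a carbonic anhydrase of capillaries, had 282, 124, 130 and 57.4 CPM in arterial cells against 757, 737, 806 and 403 CPM, with no overlap, and fell by 2.45 on the log2 scale (SE 0.22, edgeR adjusted p = 0.00216). Slc16a1, the lactate carrier, fell by 1.38, from 710, 226, 199.5 and 423 CPM to 433, 91.5, 61.9 and 130 CPM. Tfrc, the transferrin receptor, fell by 1.28, from 352, 286, 250 and 296 CPM to 105, 145, 70.4 and 153 CPM. Slc22a8, an organic anion carrier, fell by 1.16 and Slc7a5, the large amino acid carrier, by 1.05.

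Of 7 venous genes tested 3 fell and none rose, where 5.42% of all tested genes fell and 6.4% rose. Slc38a5, a glutamine carrier of veins, fell by 2.49 on the log2 scale, from 227, 105, 105 and 124 CPM to 52.4, 15.5, 23.5 and 19.1 CPM. Icam1, the leukocyte adhesion molecule, fell by 1.76, from 79.1, 90.1, 77.7 and 102 CPM to 32.8, 17.3, 42.7 and 21.1 CPM. Of 10 leukocyte adhesion genes Jam2 (by 0.45) was the other to fall, and Icam2 (0.29) and Mcam rose. Of 4 MHC class II genes 3 fell, and of 10 hypoxia genes Ankrd37 fell by 1.86 and Ldha by 0.59. Against the venous-marker cells described below, all 3 class II genes tested rose instead (median log2 difference 1.44), where 5.21% of all tested genes rose. Against the capillary-marker cells described below, none of 4 was called.

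The largest falls were of Sostdc1 (-5.61), Opalin (-3.58), Flrt2 (-3.36), Fmo2 (-3.20), Car4 and Car14 (-2.44), and Rnase4 (-2.16) also fell. Sostdc1 had 0, 0, 2.13 and 1.91 CPM in arterial cells against 154, 54.4, 79.3 and 18.8 CPM. Choroid plexus markers were 160.1 to 629.8 CPM in arterial cells and 4792 to 16078 CPM in the others, as given above, and Opalin is an oligodendrocyte gene. The 6 oligodendrocyte markers summed to 1206, 807, 258 and 1126 CPM in arterial cells against 2731, 1342, 879 and 872 CPM. The part of other cells' RNA in these falls was not tested.

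Closer comparisons used subsets of the other endothelial cells. Venous-marker cells held at least 2 UMIs over Slc38a5, Nr2f2, Ackr1 and Adgrg6, and capillary-marker cells at least 2 over Mfsd2a, Tfrc and Slc16a1 and under 2 venous UMIs, and those genes were left out of the respective tests. Against 351 venous-marker cells (24, 98, 90 and 139), 312 of 5984 genes (5.21%) rose and 238 (3.98%) fell by edgeR. Fbln2 rose by 6.17 ± 0.57, with 190, 41.5, 36.3 and 30.6 CPM against 0, 1.82, 0 and 0 CPM, a fitted value that rests on a near-empty comparison group. Stmn2 rose by 5.35, Alox12, a lipoxygenase, by 4.75, Tmem100 by 4.67 and Tpm2 by 4.43. Mural markers were higher in arterial cells here too, with 5 of 9 called (median 2.66). Tpm2 had 5 UMIs in the mural-poor arterial cells. Among mural-poor cells 211 genes rose and 191 fell against venous-marker cells. Lcn2, lipocalin 2 of inflamed endothelium, had 0, 1.73, 4.27 and 3.83 CPM in arterial cells against 24.8, 111, 88.4 and 536 CPM in venous-marker cells. Fmo2 fell by 3.79, Flrt2 by 4.17 and Cxcl10, an interferon-induced chemokine, by 3.23. Cxcl10 had 0, 0, 0 and 34.5 CPM against 41.4, 38.2, 12.6 and 238 CPM. The arterial programme had 15 of 19 members higher and none lower (median 2.06). Of 10 Notch genes 5 rose, and Lfng, which modifies Notch receptors, fell by 1.32. Of 10 leukocyte adhesion genes Mcam rose by 1.75, and Icam1 and Vcam1 fell, Vcam1 by 1.34. Of 14 immediate early genes 1 rose and 5 fell, and of 19 barrier genes 2 rose and 8 fell. Of 12 shear stress and SoxF genes 2 rose and 3 fell, among them Sox7. Without the IL-4 EV library 189 genes rose and 120 fell, and without the UT EV library 204 and 138.

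Against 1483 capillary-marker cells (53, 434, 357 and 639), 344 of 5942 genes (5.79%) rose and 276 (4.64%) fell by edgeR. Mgp was called here, with 872, 1444, 1586 and 1151 CPM against 14.98, 57.9, 66.8 and 58.1 CPM (log2 difference 4.52 ± 0.11, edgeR adjusted p = 6.69e-18). Vegfc rose by 4.93, Map3k7cl by 5.10, Tpm2 by 4.4 and Mustn1 by 4.37. Mural markers were again higher in arterial cells, with 7 of 9 called, and among mural-poor cells 187 genes rose and 156 fell. Car4 fell by 2.60, Rnase4 by 2.16, Fmo2 by 3.13 and Flrt2 by 3.26. Ndnf, a secreted neurotrophic factor, fell by 2.29. The arterial programme had 17 of 19 members higher and none lower (median 1.38), and 12 of 16 barrier genes fell. Of 10 Notch genes Jag1, Jag2 and Nrarp rose and none fell (median 0.36). Notch1, Notch4, Dll4 and Sox17 were not called here (edgeR adjusted p = 0.0515, 0.209, 0.350 and 0.140). Of 10 leukocyte adhesion genes 3 rose, Vcam1 (1.19), Mcam (1.43) and Icam2 (0.32), and 3 fell, Icam1, Jam2 and Esam. Without the UT EV library 167 genes fell.

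Within the arterial cells, 370 held Gkn3 or Bmx (10, 137, 103 and 120) and 62 did not (15, 17, 10 and 20). Between these, 8 of 1314 genes (0.609%) rose in the Gkn3 or Bmx cells and 2 (0.152%) fell by edgeR. At an unadjusted p under 0.05 there were 82 and 57. Vcam1, an adhesion molecule, had 297, 172, 200.4 and 306 CPM against 56.4, 0, 67.4 and 15.5 CPM (log2 difference 2.82 ± 0.48, edgeR adjusted p = 0.0221). Egfl8 had 344, 306, 205 and 249 CPM against 33.8, 124, 44.9 and 15.5 CPM (2.22 ± 0.41, edgeR adjusted p = 0.0229). Tgfb2 had 501, 199.5, 186 and 214 CPM against 225, 41.2, 67.4 and 46.5 CPM (1.5 ± 0.31, edgeR adjusted p = 0.0405). For each of these the 4 values of the Gkn3 or Bmx cells lay above those of the rest within every library. Fabp5, a fatty acid binding protein, fell by 1.46 and Ckb, a creatine kinase, by 1.45.

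The other genes called were Tm4sf1, Tspo, Epas1, H2-K1 and Cd2ap, all higher. The calls depended on the block and on single libraries. Without the library block edgeR called none of the genes (unadjusted p under 0.05 for 17 higher and 24 lower), and DESeq2 with the block called 9 higher and 10 lower. With 1 library left out, edgeR called 2 to 13 higher and 0 to 13 lower. Vcam1 was not called without the UT EV library (edgeR adjusted p = 0.0800), nor Egfl8 without the MAPS library (0.111). Tgfb2 was not called without the MAPS (0.0924), UT EV (0.204) or IL-4 EV library (0.0812), and Fabp5 not without the UT EV library (0.0800). Ckb was likewise lost without the MAPS, UT EV or IL-4 EV library. H2-K1 was lost without the MAPS (edgeR adjusted p = 0.133) or UT EV library (0.0800), and Tm4sf1 was called whichever library was left out.

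Libraries were compared as ratios of arterial CPM with an exact 95% binomial interval for counting error, and a gene counted as past 2-fold among those with at least 50 arterial UMIs over both libraries. With 1 library per group there is no test of a treatment, and no p is given. Between the IL-4 EV and UT EV libraries 42 of 3104 genes (1.35%) were at least 2-fold higher and 28 (0.902%) at least 2-fold lower. Between the IL-1a EV and UT EV libraries 17 of 2884 (0.589%) were higher and 47 (1.63%) lower. With TMM scaling, which moved those ratios by 0.11 on the log2 scale, 30 were higher and 28 lower. Between the IL-4 EV and IL-1a EV libraries 118 of 2813 (4.19%) were higher and 40 (1.42%) lower, and TMM scaling (a shift of -0.10) gave 95 and 50. These comparisons share libraries and are not independent of each other.

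Interferon-induced genes stood out by level in the IL-4 EV library. These genes are switched on when a cell senses interferon. Of the 20 on the list, 18 had enough counts. Of these, 8 stood 2-fold or more above the UT EV library, where 1.35% of all genes did. In all, 17 stood above it, where 1615 of 3104 genes did. The median log2 ratio was 0.92 against 0.02 over all genes. In the other endothelial cells the same median was 0.93, next to the arterial value. Against the IL-1a EV library 16 of 18 stood 2-fold or more above (median 2.04, other endothelial cells 2.19), where 4.19% of all genes did. The IL-1a EV library was in turn below the UT EV library, with 6 of 15 at least 2-fold lower, where 1.63% of all genes were. None of the 15 stood above it, and the median was -0.88 (other endothelial cells -1.19).

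Ifit3, an interferon-induced protein that restrains viral RNA, had 19.7, 283, 154 and 1034 CPM in arterial cells. The IL-4 EV value was 3.65 times the UT EV value (95% interval 3.06 to 4.37), and the MAPS value rested on 3 UMIs. Reads of Ifit3 and its near-identical neighbour Ifit3b may be split between them. Bst2, tetherin, had 144, 1041, 651 and 2916 CPM, and the IL-4 EV value was 2.80 times the UT EV value (2.55 to 3.08). Isg15, a ubiquitin-like modifier, had 91.7, 1889, 787 and 3115 CPM (1.65 times, 1.53 to 1.78). Irf7, the amplifying transcription factor, had 138, 214, 120 and 513 CPM (2.40 times, 1.93 to 2.99). Ifit1 had 65.5, 173, 117 and 410 CPM (2.37 times, 1.86 to 3.04). For these 5 genes the IL-4 EV library was highest and the UT EV library next. The IL-1a EV library was lowest for Irf7 and the MAPS library for the other 4. Over the whole list the median level was 45.9, 107, 54.4 and 231 CPM in arterial cells and 90.0, 105, 35.3 and 222 CPM in the other endothelial cells.

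**Figure D5:**
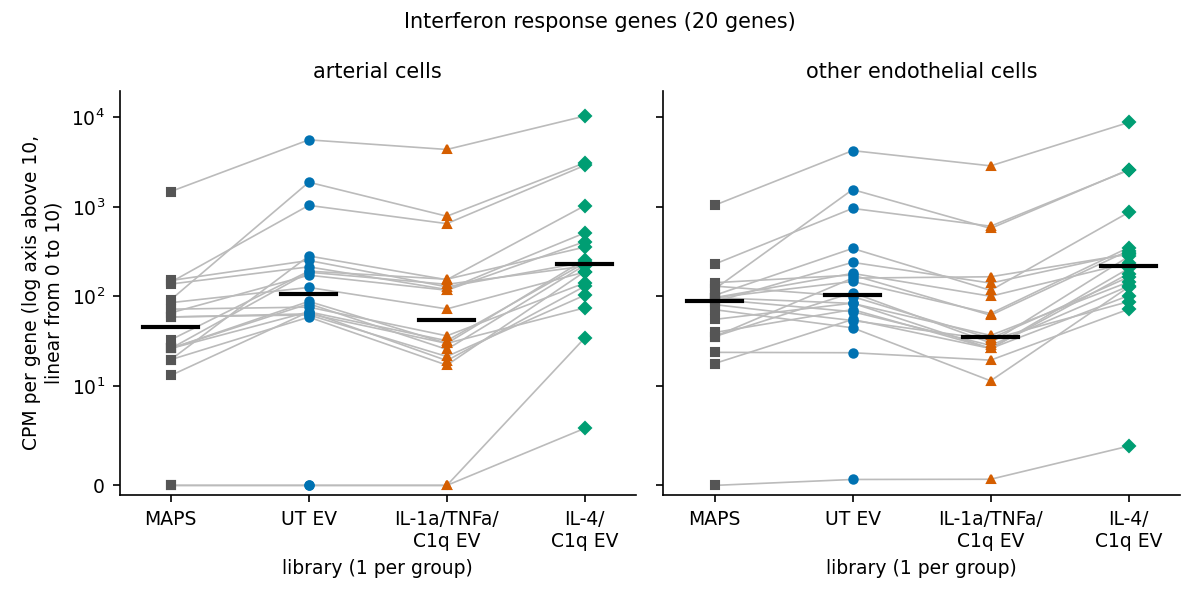
Level of each of the 20 interferon response genes (CPM, log axis above 10) in arterial cells and in the other endothelial cells, with grey lines joining a gene across the 4 libraries and black bars at the median. In both cell groups the median is highest in the IL-4 EV library (231 and 222 CPM), and in arterial cells it is lowest in the MAPS library (45.9 CPM).

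The promoters of 4 of these genes are shown because they carry the interferon-stimulated response element, a short promoter site known from genes that respond to interferon. The element was searched as GAAA, any 2 bases and GAAA again, on both strands, in RefSeq windows of the GRCm38.p6 build, from 250 bases before to 50 bases after each gene's start. It was found in 9 of the 14 list genes with a window (64.3%) and in 1079 of 27025 genes with a window (3.99%). It was also found in 5 of 16 genes of the arterial programme, 2 of 9 MHC class I genes and none of 11 Notch genes. Irf7, also named above, lacked the element in its window and is not shown. Each line gives the 150 bases before the start, 5′ to 3′ on the gene's strand, with matches in capitals. The windows are chr19:34640739-34640888 (plus strand) for Ifit1, chr19:34583379-34583528 (plus) for Ifit3, chr4:156200819-156200968 (minus) for Isg15 and chr8:71537473-71537622 (minus) for Bst2.
Ifit1: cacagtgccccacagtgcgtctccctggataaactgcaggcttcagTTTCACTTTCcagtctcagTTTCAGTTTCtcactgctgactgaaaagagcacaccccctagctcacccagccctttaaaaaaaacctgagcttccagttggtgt
Ifit3: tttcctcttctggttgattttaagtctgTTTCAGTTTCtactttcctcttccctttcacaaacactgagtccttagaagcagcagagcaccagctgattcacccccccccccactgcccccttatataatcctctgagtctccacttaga
Isg15: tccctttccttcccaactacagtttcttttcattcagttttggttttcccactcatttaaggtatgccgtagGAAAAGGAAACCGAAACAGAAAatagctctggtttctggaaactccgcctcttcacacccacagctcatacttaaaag
Bst2: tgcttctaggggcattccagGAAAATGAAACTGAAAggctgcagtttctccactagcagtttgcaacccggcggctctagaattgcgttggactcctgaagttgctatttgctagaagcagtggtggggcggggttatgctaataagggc
Matches on the other strand read TTTC, 2 bases and TTTC, as in Ifit1 and Ifit3. In Isg15 and Bst2 several matches overlap and form 1 capital run. A match is a description of the letters and not evidence of binding.

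For Notch genes the site of the DNA-binding partner RBPJ was searched as TGGGAA on both strands. It was found in 3 of 11 Notch genes with a window, in 5 of 16 genes of the arterial programme and in none of the 10 most raised genes with a window, against 28.3% of all genes with a window. Among the rule genes with a window it was found in Bmx and Sema3g, 2 of 4.

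The arterial programme was also compared between the EV libraries. Its median log2 ratio of IL-4 EV to UT EV was -0.02, with none of 18 genes at least 2-fold higher and 3 at least 2-fold lower, where 0.902% of all genes were. These were Stmn2 (0.427 times, 0.329 to 0.549), Clu (0.423 times, 0.299 to 0.590) and Eln (0.462 times, 0.260 to 0.793). For IL-1a EV to UT EV the median was -0.23 against -0.03 over all genes, with 6 of 18 above the UT EV level and 1 at least 2-fold lower, Eln (0.283 times, 0.133 to 0.553). Eln had 82.9 CPM in the UT EV library, where 29.2% of its UMIs lay in 1 cell. Tm4sf1 had 3425, 3622 and 3482 CPM in the 3 EV libraries, and the intervals of its ratios to the UT EV library included 1. Of 19 barrier genes none was 2-fold higher and 1 was 2-fold lower in either EV library than in the UT EV library.

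Some large ratios rested on 1 cell. Ccl8, a chemokine, had 159 UMIs in the IL-4 EV library, of which 99.4% lay in 1 cell. Saa3 had 87 UMIs in the IL-1a EV library, 85.1% of them in 1 cell, and Tmem212 had 64 in the UT EV library, 96.9% in 1 cell. Such values describe single cells among 113 to 154. In the IL-1a EV library Cd74 (52.4% of its UMIs in 1 cell) and H2-Ab1 (65.5%) were 4.63 and 2.95 times the UT EV level, and rested on 1 cell in part. All 4 MHC class II genes with enough counts were at least 2-fold higher there, where 0.589% of all genes were. Their median log2 ratio was 2.16 in arterial cells and 0.92 in the other endothelial cells. Genes spread over more cells were Slfn2, at 2.86 times the UT EV level in the IL-4 EV library (2.11 to 3.92), and Apod, at 0.255 times in the IL-1a EV library (0.179 to 0.356). Sox18 had 0.481 times the UT EV level in the IL-1a EV library (0.370 to 0.620).

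The MAPS library stood apart in scale. Against it the UT EV library had 559 of 2390 genes (23.4%) at least 2-fold higher and 446 (18.7%) at least 2-fold lower. TMM scaling moved these ratios by 0.84 on the log2 scale, to 1183 higher and 97 lower. Of all 2390 genes 1291 were above the MAPS level. The interferon list was above the MAPS level in all 13 genes with enough counts (median 1.75, or 2.59 with TMM scaling), with Isg15 at 20.6 times (12.2 to 37.8). Rn18s-rs5, a ribosomal RNA-like transcript, was 27776 CPM against 5125 CPM, and median mitochondrial shares were 0.748% against 1.77%. Fabp7, a gene of astrocytes and their progenitors, was 34.5 CPM against 1461 CPM, with 53.8% of the MAPS UMIs in 1 cell. Astrocyte markers summed to 1809 CPM in MAPS arterial cells and to 99.6 to 169 CPM in the other 3 libraries. With 25 cells in the MAPS library, the part of cell number, other cells' RNA and scaling in these ratios was not tested.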

How the data were processed

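Per the labels' protocols, dissociated cells of the stroke-side hemisphere were captured with the 10x Genomics 3′ v3 chemistry. The authors deposited raw UMI counts per gene and barcode for 55357 genes, and no normalization had been applied to these counts. The submitters' processing notes name GRCm39, bcl2fastq 5.0.1, Cell Ranger 7.0.0 and Seurat 4.1.0, while the file headers give Cell Ranger 8.0.1. The cell filters required a minimum of 500 UMIs and 300 genes and a mitochondrial share of no more than 20%. Doublets were called with Scrublet in scanpy 1.11.5 and kept, and removing them was an alternative. Total UMIs per library were 81189155, 45691141, 52552617 and 46981829, and groups were taken from the labels.

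Arterial, other endothelial, venous-marker and capillary-marker cells were summed per library. Genes other than the rule's were tested with edgeR 4.0.16 (R 4.3.3) after filterByExpr and TMM, with library as a block, because cell groups of 1 library come from the same suspension. The p-values rest on how the difference between cell groups varied across 4 libraries of different treatments. Each gene's spread was moderated in edgeR with that of the other genes, so a p-value does not measure that gene's spread alone. Each SE of an edgeR fit is the size of the log2 difference over the square root of the moderated F statistic. It is thus not the SE of the 4 library differences alone. DESeq2 1.42.0 was an alternative. Library ratios are of CPM, with exact conditional binomial intervals. The edgeR test was run on simulated sums with a common spread for all genes and no library effect. The ratio intervals were run on simulated counts. Neither check covers differences between libraries, and nothing is concluded from them. Statistics used numpy 2.4.6, scipy 1.17.1 and pandas 2.3.3.

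Genes were named by rule. For arterial cells these were the 14 higher and 8 lower with the largest log2 difference among genes called, with the same sign in each library, at least 1 log2 apart and with at least 50 UMIs. For venous-marker and capillary-marker cells the rule took 5 and 5, for Gkn3 or Bmx cells 6 and 4, and at most 5 members of each list. For libraries it took genes whose interval lay farthest from 1, with at least 100 arterial UMIs in all and 30 in 1 library. Markers of other cell types, mitochondrial, ribosomal protein, haemoglobin, immunoglobulin, sex-linked and predicted genes were left out. A gene that the rule took is not reported here. Tm4sf1, Clu, Mgp, Hes1, Nos3, Sox7, Ifit1 and the other genes called between Gkn3 or Bmx cells and the rest were added after their values were seen. The members and the lists were chosen with earlier results of these data known.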

Additional observations from a re-analysis of the deposited data

How the results depend on the processing

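Alternatives restricted to mural-poor cells, other than for arterial against other endothelial cells, and thinned shares over cells endothelial at full depth were chosen after seeing the data. Against other endothelial cells, called genes higher and lower were 153 and 189 with cells thinned to 1500 UMIs, 198 and 170 in cells with at most 1 mural UMI, 574 lower with no filter on low counts and 191 lower with DESeq2. They ranged from 244 to 503 higher and from 184 to 430 lower with 1 library left out. Against venous-marker cells they were 146 and 125 with DESeq2 and 378 lower with no filter, and ranged from 189 to 403 and from 120 to 372 with 1 library left out. Against capillary-marker cells they were 202 and 103 with DESeq2 and 187 and 156 in mural-poor cells, and ranged from 237 to 393 and from 167 to 295. For Gkn3 or Bmx cells they were 83 and 78 with no filter, 10 lower with DESeq2 and 1 lower with doublets removed or in mural-poor cells, and ranged from 2 to 13 and from 0 to 13. With no replicate block, dropping the pairing of cell groups within a library, the counts were 49 and 13, 60 and 27, 61 and 9, and 0 and 0 for these 4 comparisons. With no block the 14 genes named as higher were still called, and Car14 and Flrt2, named as lower, were not.

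The arterial share was 7.20%, 7.14%, 6.02% and 6.11% after thinning, and 7.08%, 7.26%, 6.31% and 5.96% over thinned cells that were endothelial at full depth. With at least 3 arterial UMIs it was 12.5%, 7.10%, 5.93% and 5.56%, and with the floor of 1233 UMIs in each library 20.0%, 12.3%, 9.30% and 10.1%.

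Between libraries, genes past 2-fold higher and lower moved as follows. For IL-4 EV over UT EV they were 17 and 15 thinned, 17 and 13 with at least 100 UMIs, 85 and 88 with at least 30 UMIs, and 14 lower with at least 3 arterial UMIs. For IL-1a EV over UT EV they were 30 and 28 with TMM, 7 and 12 thinned, 7 and 12 with at least 100 UMIs, 37 and 123 with at least 30, and 26 higher with at least 3 arterial UMIs. For IL-4 EV over IL-1a EV they were 27 and 18 thinned, 42 and 18 with at least 100 UMIs, 214 and 78 with at least 30, 65 higher with at least 3 arterial UMIs and 23 lower in mural-poor cells. For UT EV over MAPS they were 1183 and 97 with TMM and 286 and 83 thinned. Lower genes there were 160 with at least 100 UMIs, 979 with at least 30, 279 with at least 3 arterial UMIs and 244 in mural-poor cells.

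The values below changed sign. TMM scaling moves each UT EV over MAPS ratio by 0.84 by construction, and for the other alternatives the cause was not tested. Before, the UT EV over MAPS medians were -0.80 for the arterial programme, -0.78 for guidance, -0.83 for the barrier, -0.76 for tone, -0.60 for TGF-beta and -0.65 for hypoxia, and the IL-1a EV over UT EV guidance median was -0.66. For IL-1a EV over UT EV the guidance median was 0.0775 thinned, Ptgds -0.75 thinned and -1.16 in mural-poor cells, Ramp2 -0.0400 with at least 3 arterial UMIs and Atf3 -0.86 in mural-poor cells. For UT EV over MAPS with TMM the medians were 0.0427 for the arterial programme, 0.0609 for guidance, 0.00806 for the barrier, 0.0835 for tone, 0.24 for TGF-beta and 0.19 for hypoxia, and Ece1, Nos3 and Pkm were 0.0518, 0.0167 and 0.0167. The arterial programme there was 0.49 thinned, 0.16 with at least 100 UMIs and 0.10 with at least 3 arterial UMIs, and hypoxia was 0.16 thinned and 0.10 with at least 3. The interferon medians kept their sign under each alternative run. Depth limits genes under 50 UMIs and everything in the 25 MAPS cells.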
